A study of Rattus norvegicus with 12 samples.

Results

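Kidney cortex from rats given the highest dose of cephaloridine, 600 mg/kg, was compared with cortex from rats given the saline vehicle. The comparison holds 6 of the 12 arrays of the series, 3 high-dose and 3 control, taken by the dose that each sample's title and source give. All animals were male Fisher 344 rats, 8 weeks old, untreated before a single intravenous injection of 0, 150, 300 or 600 mg/kg in saline, and killed 24 h later, with 1 animal per array and 3 animals per dose. The stated purpose of the series was to profile the kidney at subtoxic and toxic doses of this drug. What was measured was total RNA of the whole cortex of an inbred strain at a single time, so a gene's signal sums over all the cells of the cortex. In such tissue, fewer cells of a type and less RNA per cell cannot be told apart. The 3 control arrays lay on slide 1 with 1 low-dose array, and the 3 high-dose arrays on slide 4 with 1 middle-dose array. The 2 groups therefore never met on a slide. Values refitted under the slide block are given beside the results for this reason. They reach from control to high dose only in steps, through low 1, then the middle and low arrays of slides 2 and 3, then middle 3. A blocked change therefore leans on single arrays, and moves where low 1 or middle 3 strays from the others of its dose.

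Cephaloridine is a cephalosporin antibiotic that organic anion carriers take up from blood into the proximal tubule cell. It leaves that cell slowly, builds up there and is known for oxidative injury of this segment. Cells under such stress raise heat shock chaperones, which hold damaged proteins in a foldable state, and the antioxidant enzymes that the transcription factor NRF2 controls. Tubules recover from acute injury when surviving cells lose part of their transport programme, enter the cell cycle and divide, and the chemokines they release draw in monocytes and neutrophils.

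Promoters are shown for 4 of the genes that rose, 1 from the heat shock response and 3 from the complex that licenses DNA for replication. They were picked because each held a match described next. Promoters of other groups held matches too and are not shown. The windows are the 250 bases before the RefSeq start on assembly GRCr8, written 5′ to 3′ in the direction of the gene, with each match to the searched letters in capitals. The first holds a heat shock element, searched on both strands as 3 GAA units in alternate orientation with any 2 bases between, at chr12:10427118-10427367 on the plus strand, 36 bases before the start.
Hsph1: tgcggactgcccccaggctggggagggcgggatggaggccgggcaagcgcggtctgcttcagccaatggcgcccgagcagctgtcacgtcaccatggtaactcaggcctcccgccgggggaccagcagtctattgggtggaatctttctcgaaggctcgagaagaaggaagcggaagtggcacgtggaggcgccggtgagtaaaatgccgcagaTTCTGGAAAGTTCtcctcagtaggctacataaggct
The next 3 hold E2F elements, searched as TTTCCCGC, TTTGGCGC, TTTCGCGC or TTTGCCGC on both strands, where 2 matches can overlap on opposite strands. They lie at chr4:122918095-122918344 on the minus strand, chr19:13488563-13488812 on the plus strand and chr13:42404353-42404602 on the minus strand.
Mcm2: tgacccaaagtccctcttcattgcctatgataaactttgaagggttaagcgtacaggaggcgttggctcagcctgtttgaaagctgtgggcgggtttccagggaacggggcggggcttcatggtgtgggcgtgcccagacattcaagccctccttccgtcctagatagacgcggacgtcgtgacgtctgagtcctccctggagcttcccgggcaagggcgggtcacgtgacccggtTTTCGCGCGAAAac
Mcm5: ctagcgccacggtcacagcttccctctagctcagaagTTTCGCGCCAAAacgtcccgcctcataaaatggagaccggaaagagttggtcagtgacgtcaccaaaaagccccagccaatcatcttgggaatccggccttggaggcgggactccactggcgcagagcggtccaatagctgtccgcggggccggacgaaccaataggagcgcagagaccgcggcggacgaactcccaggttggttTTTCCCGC
Mcm6: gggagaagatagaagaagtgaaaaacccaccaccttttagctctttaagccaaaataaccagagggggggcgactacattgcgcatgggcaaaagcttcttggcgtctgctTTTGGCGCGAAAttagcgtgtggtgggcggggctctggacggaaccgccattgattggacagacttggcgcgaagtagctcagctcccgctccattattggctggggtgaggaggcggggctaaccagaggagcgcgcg
Of the 27457 rat promoters in the table, 0.597% held the heat shock element and 1.81% an E2F element in these 250 bases, and of the 9009 promoters that belonged to tested genes 0.366% and 3.17% did. Of the 23 heat shock genes with a promoter entry, 2 held the heat shock element (8.7%), and of the 13 of these called higher 1 did (7.69%). Of the 32 replication genes with an entry, 7 held an E2F element (21.9%); these were E2f3, Mcm2, Mcm5, Mcm6, Mcm7, Pola1 and Tyms. E2f3 and Pola1 were not called, which left 5 of the 29 called higher (17.2%). The antioxidant response element, searched as TGACNNNGC, was in 6 of 27 NRF2 target promoters (22.2%) and in 2 of the 13 called higher (15.4%), against 12.5% of the promoters of tested genes. A match is a run of letters, not a shown binding site.

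Of 20760 genes tested, 3732 were called higher (18%) and 3492 lower (16.8%) at 600 mg/kg, called meaning a limma adjusted p under 0.05. The 3 high arrays lay wholly above or wholly below the 3 controls in 56.1% of tested genes. Counts of list members are read against these 2 shares. A gene dim in the other groups could enter the test through its high-dose arrays alone, and such a gene could hardly read lower. Most of the called changes were small, and 268 genes rose (1.29%) and 84 fell (0.405%) by at least 2-fold. The median change was -0.002, with quartiles of -0.166 and 0.159 on the log2 scale. Scaling each array to its own 75th percentile holds this middle near 0, so a shift shared by all genes could not be seen. Levels are given throughout as the log2 signal minus the array's 75th percentile, so that 0 marks a probe as bright as that percentile. Changes are differences of these levels, where 1 is a doubling. The value after ± is the limma standard error with n = 3 animals a group. Dim genes gave most of the large changes: 143 of the 268 rises and 51 of the 84 falls of at least 2-fold lay in the lowest quartile of genes by level. Calls were more even, with 11.9% called higher in the lowest quartile and 23.8% in the highest. A background correction that adds 50 units to every signal left 94 rises and 15 falls of at least 2-fold. Once slide was blocked the calls numbered 584 (2.81%), of which 380 were higher (1.83%) and 204 lower (0.983%). Of these 398 were called in both fits, 397 of them in the same direction. The blocked fit rests on 5 residual degrees of freedom in place of 8 and had a median standard error of 0.154 in place of 0.076. The 12 arrays were alike in signal, with 59.3% to 63.3% of probes well above background and no saturated spot. All 20 proximal tubule markers were tested and together held a level of 10.89 to 10.95 on control arrays. Of 9 adrenal markers 3 were bright enough to be tested, and of the 6 B cell markers on the array 1 was. No marker list for the medulla was used, so these values cannot tell cortex from whole kidney.

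**Figure D1:**
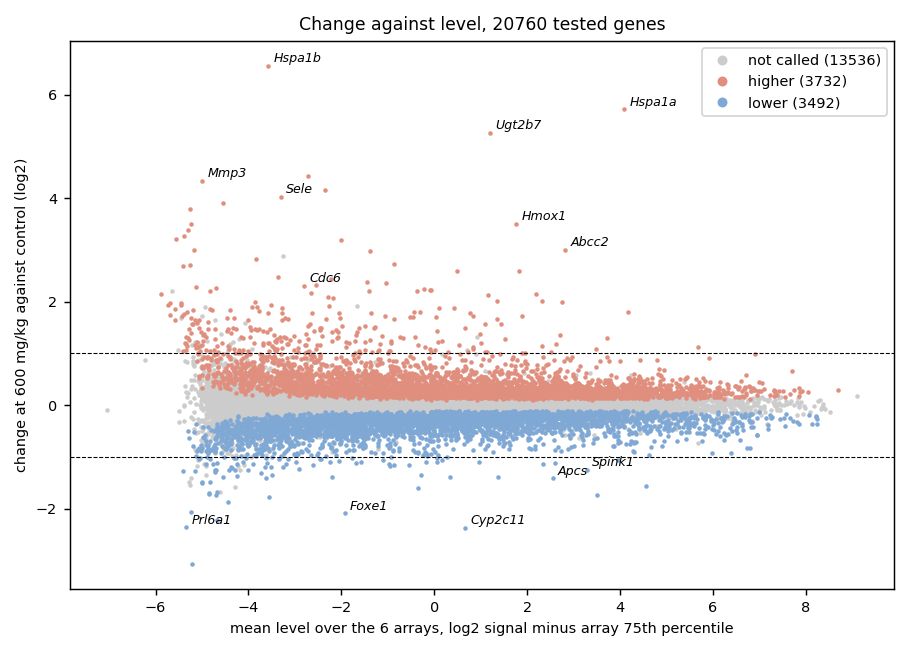
Change at 600 mg/kg against control (log2, vertical axis) against the mean level over the 6 arrays (log2 signal minus the array's 75th percentile, horizontal axis) for 20760 tested genes, with genes called higher in red, lower in blue and not called in grey, and dashed lines at 2-fold. Hspa1a reaches 5.72 and Cyp2c11 -2.37, the latter the largest fall among genes that could be named, and points of genes not well above background in a group, such as Hspa1b, have no measured size.

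**Figure D2:**
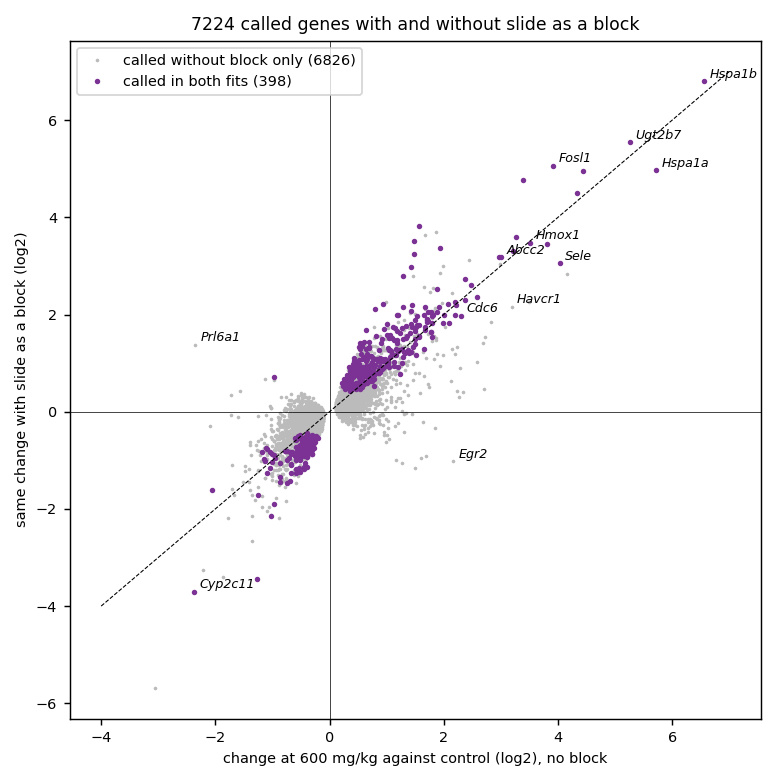
Change at 600 mg/kg against control (log2) for the 7224 called genes, without a block on the horizontal axis and under the slide block on the vertical axis; purple points were called in both fits and the dashed line marks equal values. The sign was the same in 92.9% of genes, and Prl6a1 and Egr2 are among those that turned.

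The heat shock response held the largest rise among named genes that were well above background in both groups. Hspa1a, the stress-inducible HSP70, read 1.10, 1.51 and 1.09 on the 3 control arrays and 7.07, 6.79 and 6.98 on the 3 high-dose arrays, a change of 5.72 ± 0.28 (limma adjusted p = 1.56e-06). The high-dose animals lay within 0.28 of each other and far above every control. Its near-identical neighbour Hspa1b was not well above background in controls (-7.29, -7.22 and -6.08) and read -0.12, -0.49 and -0.30 at high dose, at least 24.4-fold higher (adjusted p = 7.03e-07); the 2 sequences are close enough that one probe may carry signal of the other. Hsph1, an HSP110 that recharges HSP70, read 0.50, 0.52 and 0.60 in controls and 3.20, 2.93 and 3.24 at high dose (change 2.59 ± 0.13, adjusted p = 1.56e-06). All 3 stayed called under the slide block (log2 4.97, 6.80 and 2.36).

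Their partners moved less. Of 30 heat shock genes tested, 17 were called higher and 2 lower, with a median change of 0.26, and 4 of the 17 were called under the slide block too. Bag3, which couples HSP70 to small heat shock proteins and autophagy, rose by 0.88 ± 0.07 from 4.28, 4.34 and 4.42 to 5.35, 5.11 and 5.23 (adjusted p = 1.94e-05) and was the fourth of these. The small heat shock protein Hspb1 rose by 0.68 ± 0.08, the cytosolic HSP90 Hsp90aa1 by 0.53 ± 0.10 and the HSP40 cochaperone Dnajb1 by 0.51 ± 0.08 (adjusted p = 0.000347, 0.00319 and 0.0014; 0.182, 0.207 and 0.163 under the slide block). The constitutive HSP70 Hspa8 did not pass (change -0.14, adjusted p = 0.106). Hspa4, an HSP110 relative, fell by 0.66 ± 0.10 (adjusted p = 0.00076), though its second probe gave 0.14, and the testis-enriched Hspa2 fell by 0.22 ± 0.08 (adjusted p = 0.0488); neither was called with the block. The call of Hspa2 did not hold without control 1, control 2, control 3, high 1 or high 3 (adjusted p up to 0.17). The mitochondrial chaperonin Hspd1 rose by 0.27 ± 0.04 (adjusted p = 0.00092), 1 of 2 called among 10 mitochondrial chaperones and proteases, while its lid Hspe1 read a change of 0.04 (adjusted p = 0.726). Of 11 chaperonin and prefoldin genes 4 rose, led by the ring subunit Tcp1 (0.31 ± 0.07, adjusted p = 0.0067). At 300 mg/kg the mean level of Hspa1a was 1.31 and that of Hsph1 0.55, beside 1.23 and 0.54 in controls and 6.95 and 3.12 at 600 mg/kg, so the middle-dose means lay far nearer the control means.

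**Figure D3:**
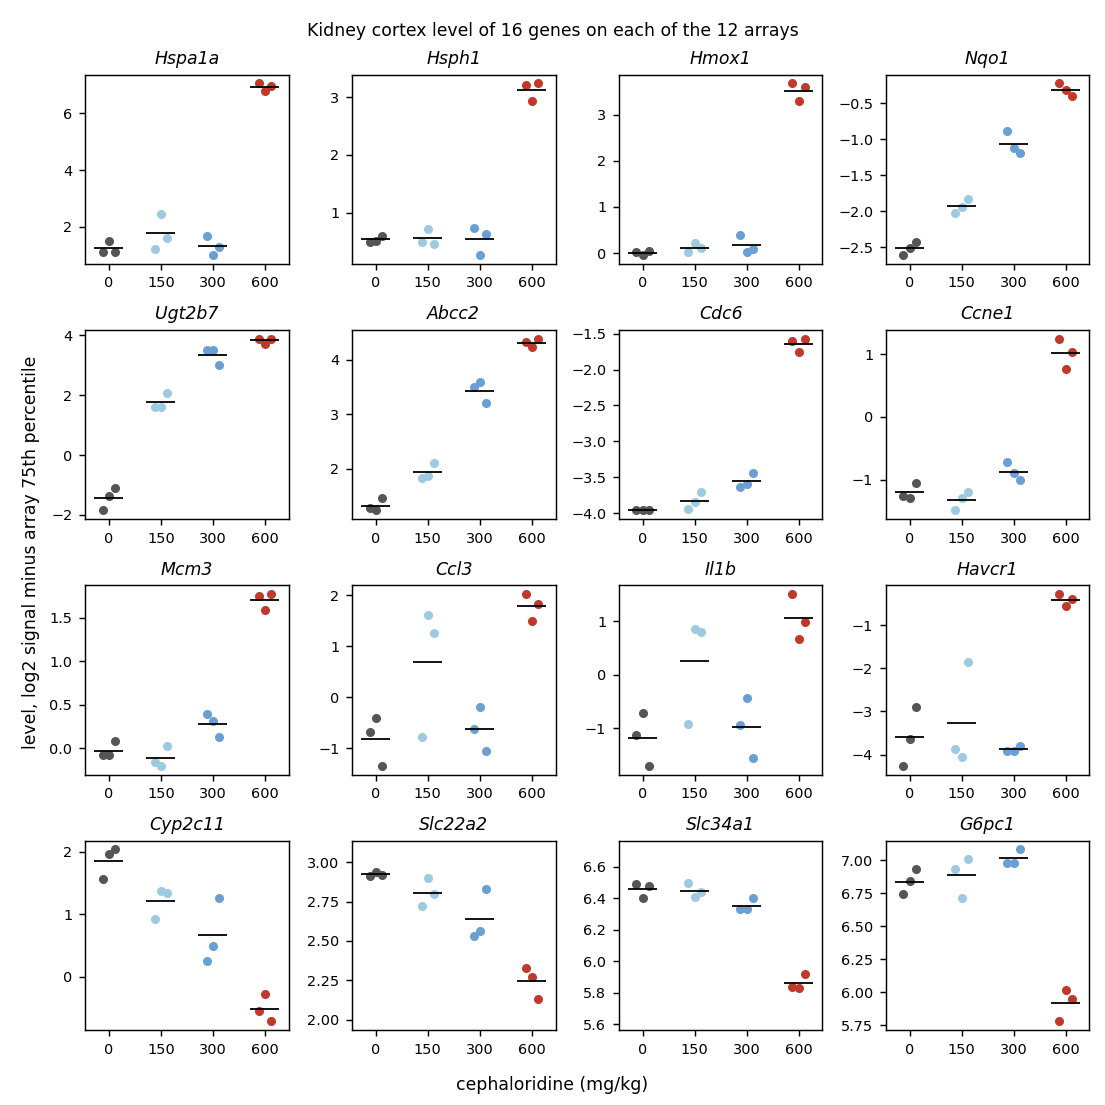
Level of 16 genes (log2 signal minus the array's 75th percentile, vertical axes, each on its own scale) on each of the 12 arrays by dose in mg/kg (horizontal axes), with points for animals and bars for the mean of 3. Hspa1a, Hsph1 and Hmox1 stand apart at 600 mg/kg alone, while Ugt2b7, Abcc2 and Nqo1 already lie above control at lower doses and Slc22a2, Slc34a1 and G6pc1 lie lowest at 600 mg/kg.

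Enzymes that answer oxidants and clear drugs rose in part of each family. Hmox1, which breaks down heme, read 0.03, -0.04 and 0.04 in controls and 3.68, 3.29 and 3.59 at high dose, a change of 3.51 ± 0.11 (adjusted p = 2.4e-07; log2 3.48, adjusted p = 0.00491 under the slide block). Of 30 NRF2 redox targets 15 rose and 3 fell, with a median of 0.28 (0.18 with normexp background correction), and 4 rises stayed called with the block. The sulfiredoxin Srxn1 (2.48 ± 0.15, adjusted p = 6.88e-06), the quinone reductase Nqo1 (2.20 ± 0.09, adjusted p = 6.09e-07) and the aldo-keto reductase Akr1b8 (1.81 ± 0.16, adjusted p = 5.41e-05) led it, and each stayed called with the block. Srxn1 was well above background on 2 of the 3 control arrays. Nqo1 read -2.61, -2.51 and -2.43 in controls and -0.22, -0.32 and -0.40 at high dose, 2 groups far apart. By role, 6 of 9 quinone and aldehyde reductases rose, 4 of 5 genes of the thioredoxin system, but 1 of 7 genes of glutathione synthesis and use. Gclc and Gclm, the subunits of the rate-limiting ligase of glutathione synthesis, did not pass (changes 0.07 and 0.45, adjusted p = 0.547 and 0.0995), and Gclm was well above background on 1 control array. Sesn2, a stress-induced inhibitor of growth signalling, fell by 0.57 ± 0.13 (adjusted p = 0.00739), with Idh1, a cytosolic source of NADPH, and Aldh1a1, a retinal dehydrogenase, lower by 0.30 and 0.23. None of these 3 stayed called with the block.

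Ugt2b7, which joins glucuronic acid to drugs and steroids, read -1.85, -1.37 and -1.09 in controls and 3.87, 3.72 and 3.89 at high dose (change 5.26 ± 0.21, adjusted p = 6.09e-07; 0.00868 under the slide block). Of 8 transferases of this family tested 7 rose, but they share sequence and not all 7 may be separate signals. The 2 enzymes that make their sugar donor, Ugdh and Ugp2, rose by 0.26 ± 0.05 and 0.34 ± 0.05 (adjusted p = 0.00477 and 0.000673; neither called with the block). Ugt2b15 rose by 1.0 ± 0.13 (adjusted p = 0.000512) and Ugt2b37, not well above background in controls, at least 1.32-fold (adjusted p = 0.00257; 0.0711 with the block). Among 17 glutathione transferases 5 rose and 3 fell. Gstm1 rose by 2.01 ± 0.15 (adjusted p = 2.3e-05) and the placental form Gstp1 by 0.99 ± 0.10 (adjusted p = 9.55e-05; 0.127 with the block). The microsomal Mgst3 fell by 0.34 ± 0.08 with 1 control spot left out as an outlier (adjusted p = 0.00876; 0.271 with the block). Abcc2, the conjugate exporter of the brush border, read 1.27, 1.23 and 1.46 in controls and 4.33, 4.23 and 4.39 at high dose (change 3.0 ± 0.11, adjusted p = 5.28e-07; 0.00366 with the block). Of the other 10 drug efflux pumps, the P-glycoprotein Abcb1b (0.68 ± 0.12) and the basolateral Abcc3 (0.26 ± 0.06) rose and Abcc1 and Abcc6 fell by 0.36 ± 0.11 and 0.18 ± 0.06 (adjusted p = 0.00243, 0.00577, 0.0233 and 0.0345); none of these 4 was called with the block. The call of Abcc1 did not hold without control 1, control 2 or high 3 (adjusted p up to 0.0857), and that of Abcc6 without control 1, control 2, control 3, high 2 or high 3 (0.121).

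Uptake carriers moved the other way for organic ions. Of 10 organic anion carriers 4 fell and none rose, and of 5 carriers of organic cations and carnitine 4 fell and none rose. Slc22a6 (OAT1), which loads cephaloridine into the tubule cell, read 4.97, 4.90 and 5.21 in controls and 4.58, 4.50 and 4.66 at high dose (change -0.45 ± 0.10, adjusted p = 0.00697). Its partner Slc22a8 (OAT3) read 2.79, 2.71 and 2.89 and 2.21, 2.26 and 2.32 (change -0.53 ± 0.10, adjusted p = 0.00247). The high-dose arrays lay below all controls for both, but under the slide block the changes were -0.32 and -0.15 and not called (adjusted p = 0.48 and 0.664). The cation carrier Slc22a2 (OCT2) read 2.91, 2.94 and 2.92 and 2.33, 2.27 and 2.13 (change -0.68 ± 0.08, adjusted p = 0.000331). It stayed called with the block (log2 -1.09, adjusted p = 0.0218). That fit runs through middle 3, where Slc22a2 read 2.83, against 2.53 and 2.56 on the other middle-dose arrays. The carnitine carrier Slc22a5 fell by 0.52 ± 0.10 (adjusted p = 0.00262; 0.203 with the block). Urate and phosphate-family carriers of the brush border rose instead: Slc17a1 by 0.49 ± 0.08, Slc17a3 by 0.45 ± 0.05 and the urate exchanger Slc22a12 by 0.35 ± 0.06 (adjusted p = 0.00152, 0.000272 and 0.00229). Slc17a1 alone of these 3 was called with the block (adjusted p = 0.0324).

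Heme, iron and P450 genes changed as a few large members. Alas1, which starts heme synthesis, rose by 1.12 ± 0.07 from 5.03, 5.07 and 5.22 to 6.32, 6.16 and 6.21 (adjusted p = 5.57e-06), and the transferrin receptor Tfrc by 1.18 ± 0.12 (adjusted p = 9.58e-05); both stayed called with the block (adjusted p = 0.0301 and 0.0278). In all 8 of 25 heme and iron genes rose and 2 fell, and of 2 metallothioneins tested neither was called. Of 25 cytochromes P450, 5 rose and 8 fell. The vitamin D hydroxylase Cyp24a1 read 0.05, -0.26 and -1.34 in controls and 1.13, 1.31 and 1.61 at high dose (change 1.87 ± 0.46, adjusted p = 0.0111; 0.0588 with the block), with control 3 well below the other controls. Cyp1b1 and the oxysterol hydroxylase Cyp7b1 rose by 1.49 ± 0.18 and 1.24 ± 0.11 (adjusted p = 0.000314 and 5.58e-05; 0.14 and 0.0456 with the block). The male-pattern steroid hydroxylase Cyp2c11 read 1.57, 1.96 and 2.04 in controls and -0.55, -0.28 and -0.71 at high dose, the largest named fall in both fits here. Its change was -2.37 ± 0.25 (adjusted p = 0.000127), and log2 -3.71 with the block (adjusted p = 0.0125). The block runs through middle 3, where Cyp2c11 read 1.27, against 0.25 and 0.49 on the other middle-dose arrays. The arachidonate epoxygenase Cyp2c23 fell by 0.52 ± 0.06 and the ethanol-inducible Cyp2e1 by 0.52 ± 0.09 (adjusted p = 0.000328 and 0.00186; 0.262 and 0.422 with the block).

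DNA replication was the list with most rises that stayed called under the slide block. Of 41 genes of replication and S-phase entry tested, 34 rose and 1 fell, with a median change of 0.74, and 22 of the 34 stayed called with the block. All 11 genes of origin licensing and the helicase rose, with a median of 1.67, and 9 of them stayed called. Cdc6, which loads the helicase onto origins, read -3.95, -3.95 and -3.96 in controls and -1.61, -1.75 and -1.57 at high dose (change 2.31 ± 0.07, adjusted p = 2.4e-07; log2 1.97, adjusted p = 0.00395 with the block). Its partner Cdt1 rose by 2.09 ± 0.09 from -3.23, -3.52 and -3.23 to -1.16, -1.31 and -1.24 (adjusted p = 7.03e-07; 0.0152 with the block). The controls of Cdc6 lay within 0.01 of each other and those of Cdt1 within 0.29, and no array of one group reached the other.

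The 6 subunits of the helicase ring rose together but by unequal amounts. Mcm5 rose by 1.79 ± 0.12, Mcm3 by 1.73 ± 0.09, Mcm6 by 1.71 ± 0.08, Mcm4 by 1.17 ± 0.14, Mcm2 by 1.16 ± 0.05 and Mcm7 by 0.66 ± 0.05, with limma adjusted p from 6.53e-07 for Mcm2 to 0.00029 for Mcm4. Under the slide block 5 of the 6 stayed called and Mcm4 did not (log2 1.37, adjusted p = 0.0963). Mcm2, with the pair of overlapping E2F matches shown above, read -0.05, -0.07 and -0.01 in controls and 1.14, 1.05 and 1.17 at high dose, and Mcm5, with 3 matches, -3.07, -2.96 and -2.77 and -1.07, -1.19 and -1.18. Mcm3, which was not among the 7 genes with a match, rose as much as Mcm5 within their standard errors. Not every gene of the list had a promoter entry, and a link of the matches to the rises was not tested. Of 15 polymerase and clamp genes 14 rose, with a median of 0.70; Pcna, the sliding clamp, rose by 0.78 ± 0.06 (adjusted p = 2.67e-05; 0.0502 with the block), while the polymerase subunit Pola1 did not pass (change 0.27, adjusted p = 0.225). Ccne1, the cyclin that opens S phase, read -1.26, -1.29 and -1.06 in controls and 1.25, 0.76 and 1.04 at high dose (change 2.22 ± 0.13, adjusted p = 4.59e-06; 0.0273 with the block). E2f1 rose by 1.78 ± 0.09 (adjusted p = 2.18e-06; 0.0286 with the block), but E2f3 (0.40, adjusted p = 0.0801) and the G1 cyclin Ccnd1 (-0.02, adjusted p = 0.901) did not pass. For nucleotide supply, the thymidylate synthase Tyms rose by 0.74 ± 0.09 (adjusted p = 0.000257; 0.0301 with the block) and the reductase subunit Rrm2 did not pass (change 0.83, adjusted p = 0.0532).

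The machinery of mitosis, which follows S phase, had fewer calls. Of 28 genes tested 9 rose and 1 fell, with a median of 0.16. Under the slide block the median was 0.55 with 25 of 28 positive, and 1 rise was called, the checkpoint kinase Ttk (log2 1.56, adjusted p = 0.0473, against 0.46 and 0.122 without the block). The 1 call found in both fits was the fall. The checkpoint kinase Bub1b rose by 0.69 ± 0.14, the kinase-binding Cks2 by 0.62 ± 0.13 and the cyclin Ccna2 by 0.60 ± 0.13 (adjusted p = 0.00481, 0.00455 and 0.00559; 0.121, 0.142 and 0.161 with the block). The phosphatase Cdc25b fell by 0.33 ± 0.08 (adjusted p = 0.00891; 0.0454 with the block). The mitotic kinase Cdk1 read 1.95, 1.81 and 2.05 in controls and 2.45, 2.11 and 2.42 at high dose and did not pass (change 0.39, adjusted p = 0.0503). Its level was lower in between, with means of 1.16 at 150 and 1.18 at 300 mg/kg. The proliferation marker Mki67 was also lower at 150 and 300 mg/kg than in controls, with means of -1.77, -2.41, -2.55 and -1.35 from 0 to 600 mg/kg. Its change at 600 mg/kg was 0.43 ± 0.13 (adjusted p = 0.0261, and 0.0534 with the block). Cdc6 by contrast had means of -3.95, -3.83, -3.55 and -1.64. Of 20 p53 targets 9 rose and 1 fell, and none of these calls was kept with the block. There 1 target was called higher and 2 lower. Cdkn1a, the cyclin kinase inhibitor p21, read -0.73, -0.27 and -0.69 in controls and 0.03, 0.50 and 0.52 at high dose (change 0.91 ± 0.21, adjusted p = 0.00843), but -0.05 with the block (adjusted p = 0.96). The death receptor Fas rose by 0.57 ± 0.10 (adjusted p = 0.00208) and Sesn1, a p53-induced brake on growth signalling, fell by 0.49 ± 0.08 (adjusted p = 0.0017). Of 27 apoptosis regulators 9 rose and 2 fell. The pore former Bak1 (0.67 ± 0.08, adjusted p = 0.000272) and the necroptosis kinase Ripk3 (0.65 ± 0.08, adjusted p = 0.000267) led the rises. The inhibitor Xiap and the mitophagy receptor Bnip3l fell by 0.37 ± 0.10 and 0.25 ± 0.03 (adjusted p = 0.0178 and 0.000536). None of the 11 was called with the block. The call of Mki67 did not hold without control 2, control 3, high 1 or high 3 (adjusted p up to 0.0927), and that of Xiap without control 1 or high 3 (0.0696).

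**Figure D4:**
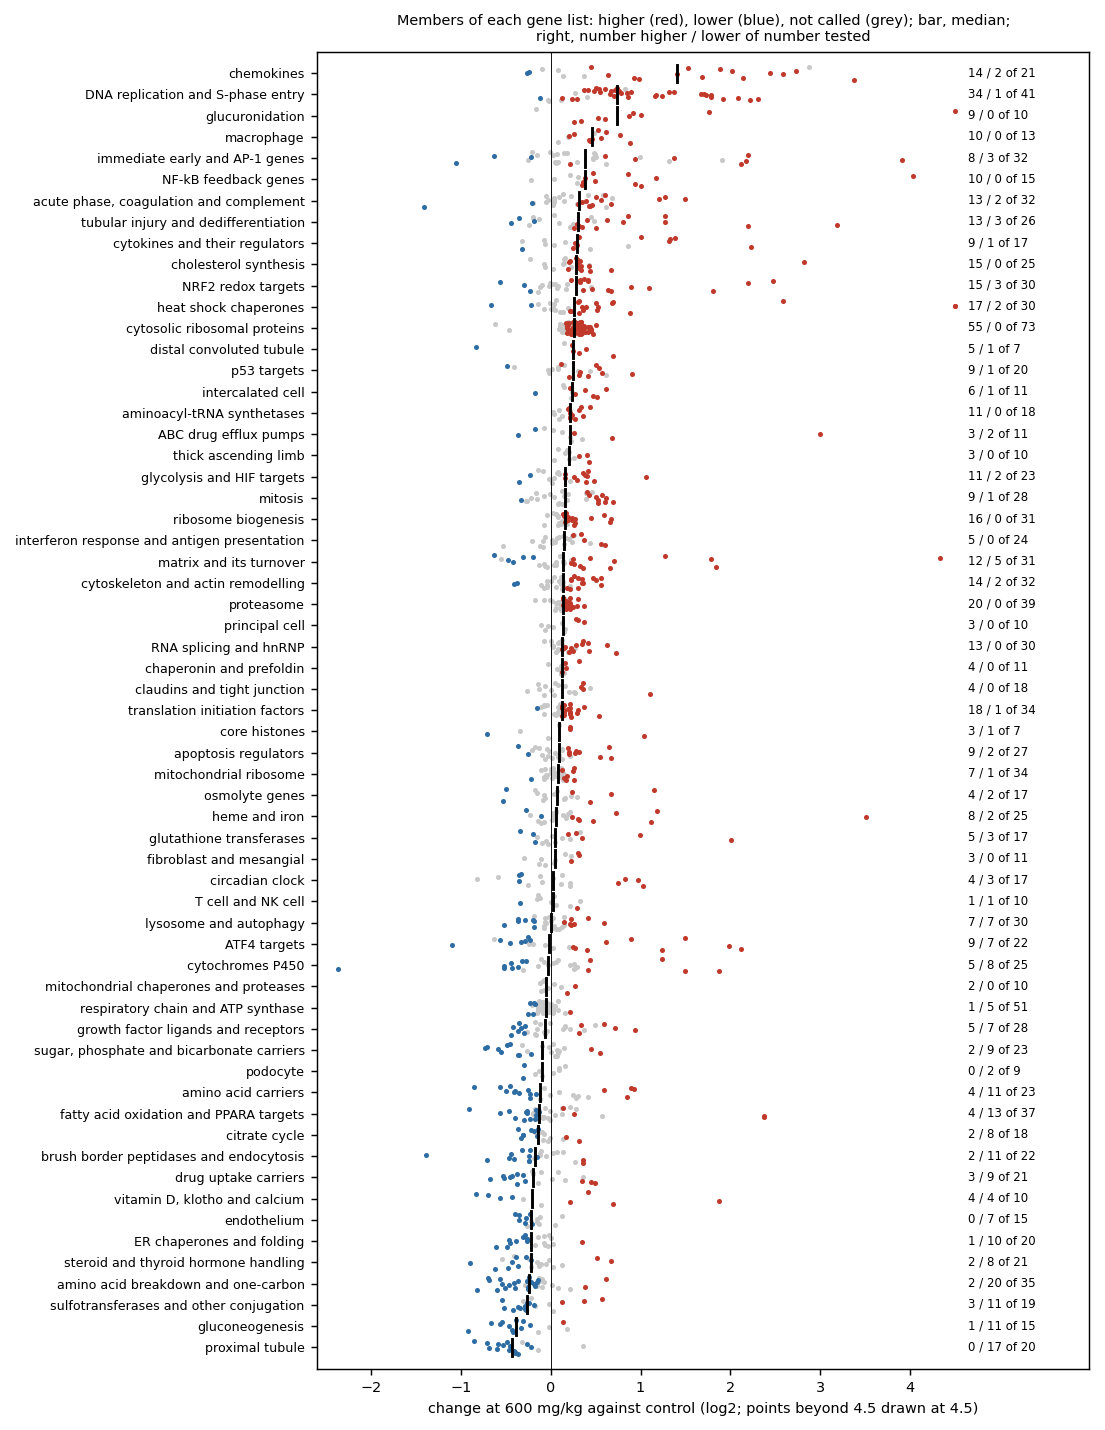
Change at 600 mg/kg against control (log2, horizontal axis) of the tested members of each gene list with at least 7 of them (rows, ordered by median), called higher in red, lower in blue and not called in grey, with a black bar at the median and the counts called higher and lower at the right. Chemokines (median 1.41, or 0.86 under the slide block), glucuronidation genes and replication genes (both 0.74) stand at the top and the proximal tubule (-0.43) and gluconeogenesis (-0.39) at the bottom. Members that entered the test through the high-dose arrays alone, as some chemokines did, could hardly read lower.

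Inflammatory genes rose in number, with wide spread between animals. Of 21 chemokines 14 rose and 2 fell, with a median of 1.41, and 3 of the 14 stayed called under the slide block, where the median was 0.86. With normexp background correction it was 0.90. The count and the median include members such as Ccl12 that entered the test through the high-dose arrays alone, which leans both upward. Ccl12, a monocyte attractant, was not well above background in controls (-7.06, -7.03 and -6.89) and read -2.80, -4.29 and -3.77 at high dose, at least 2.45-fold higher (adjusted p = 0.000548; 0.0456 with the block). Ccl3, a macrophage attractant, read -0.68, -0.42 and -1.35 in controls and 2.02, 1.49 and 1.82 at high dose (change 2.59 ± 0.53, adjusted p = 0.00441; 0.38 with the block). Ccl2, the main monocyte attractant, read 0.81, 2.33 and 0.27 in controls and 3.91, 2.82 and 3.09 at high dose; the groups did not overlap, but control 2 lay well above the other controls (change 2.14 ± 0.62, adjusted p = 0.0231; 0.34 with the block). Control 2 was also the highest control for the neutrophil attractant Cxcl1 (-2.56, -1.05 and -3.08, against 1.27, 0.08 and 0.15; change 2.73 ± 0.74, adjusted p = 0.0172; 0.603 with the block). The same held for the interferon-induced Cxcl10 (0.01, 1.09 and -0.04, against 2.37, 2.24 and 2.50; change 2.02 ± 0.30, adjusted p = 0.000825; 0.213 with the block). Ccl5, made by T cells, and the anchored chemokine Cx3cl1 fell by 0.27 ± 0.09 and 0.24 ± 0.08 (adjusted p = 0.0345 and 0.0348; the block gave 0.694 and 0.681). The call of Ccl2 did not hold without control 1, control 3, high 1 or high 3 (adjusted p up to 0.0837), that of Cxcl1 without control 1, control 3 or high 1 (0.0652), that of Ccl5 without control 1, control 2 or high 1 (0.125) and that of Cx3cl1 without control 2, control 3, high 2 or high 3 (0.126).

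Of 17 cytokines and their regulators 9 rose and 1 fell, and of 15 feedback genes of the transcription factor NF-kB 10 rose and none fell. Il1b, the cytokine that drives fever and neutrophil entry, read -1.13, -0.71 and -1.71 in controls and 1.51, 0.66 and 0.99 at high dose (change 2.23 ± 0.48, adjusted p = 0.0058). Socs3, a brake on cytokine signalling, rose by 1.33 ± 0.32 (adjusted p = 0.00988) and Tnf, not well above background in controls, at least 1.57-fold (adjusted p = 0.0276), while the lymphocyte cytokine Il15 fell by 0.32 ± 0.08 (adjusted p = 0.00915). None of these 4 was called with the block (adjusted p = 0.311, 0.982, 0.544 and 0.414), where Socs3 turned to -0.03. Il6 was too dim to be tested. Sele, the adhesion molecule that activated endothelium shows to leukocytes, was not well above background in controls (-5.05, -5.16 and -5.73) and read -0.95, -1.44 and -1.45 at high dose, at least 12.4-fold higher (adjusted p = 4.42e-05; 0.0489 with the block). The NF-kB regulators Nfkbiz and Birc3 rose by 1.17 ± 0.22 and 1.01 ± 0.19 (adjusted p = 0.0032 and 0.00253; 0.23 and 0.176 with the block). The call of Tnf did not hold without control 1, control 3, high 1 or high 3 (adjusted p up to 0.0932).

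Markers of macrophages moved with these genes. Of 13 macrophage markers tested 10 rose and none fell, with a median of 0.46, and the summed level of the list went from 5.60 to 5.78 on control arrays to 5.95 to 6.14 on high-dose arrays. Adgre1 (F4/80) read 0.10, 0.09 and 0.25 in controls and 1.09, 0.93 and 1.06 at high dose (change 0.88 ± 0.07, adjusted p = 3.7e-05). The immunoglobulin receptor Fcgr2b rose by 0.77 ± 0.09 (adjusted p = 0.00022). For this pair the block gave 0.70 and 0.86 and no call (adjusted p = 0.0587 and 0.0798). Cd68 did not pass (change 0.19, adjusted p = 0.0971). Of the 10 neutrophil markers on the array 3 were bright enough to test, of which the decoy receptor Il1r2 was at least 1.54-fold higher (adjusted p = 0.000354; 0.0372 with the block), and the granule protein S100a9 did not pass (change 0.74, adjusted p = 0.149, with 1 control array well above background). Il1r2 was tested only because its 3 high-dose arrays were bright, so its direction was set by the filter and says nothing on neutrophil number. Of 10 markers of T and NK cells 1 rose and 1 fell. What part these cells had in the rise of chemokines and cytokines was not tested. Of 32 acute phase, coagulation and complement genes 13 rose and 2 fell. The pentraxin Apcs read 3.14, 3.14 and 3.51 in controls and 1.75, 1.83 and 1.96 at high dose (change -1.41 ± 0.11, adjusted p = 2.23e-05; 0.0629 with the block). The summed level of the 8 acute phase genes, most of it from Apcs, went from 3.23 to 3.58 on control arrays to 2.04 to 2.25 on high-dose arrays. Of the 8 genes 3 rose and 1 fell, with a median change of 0.55. The fibrinogen chains Fgb and Fgg rose by 1.50 ± 0.13 and 1.21 ± 0.13 (adjusted p = 3.65e-05 and 0.000177; 0.0275 and 0.0804 with the block), with Fgb reading 0.08, -0.29 and -0.05 in controls and 1.25, 1.44 and 1.55 at high dose. Of 24 interferon and antigen presentation genes 5 rose and none fell, led by the GTPase Gbp2 (0.60 ± 0.16, adjusted p = 0.0152; 0.398 with the block), a share close to that over all genes. The call of Gbp2 did not hold without control 3 or high 3 (adjusted p up to 0.0601).

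Immediate early genes, which cells switch on within minutes of a stimulus, depended on which arrays entered the fit. Fos read -2.76, -2.06 and -3.07 in controls, -2.68, 2.12 and 2.16 at 150 mg/kg, -2.87, -1.89 and -2.97 at 300 mg/kg and -0.66, -0.38 and -1.11 at high dose. The high-dose arrays all lay above the controls, but low 2 and low 3 lay higher still, and low 1 did not. Egr1 had the same order, with 0.25, 0.71 and -0.19 in controls, 0.00, 3.12 and 3.1 at 150 mg/kg and 1.69, 1.62 and 1.41 at high dose. The fit takes the spread from all 4 groups, and neither gene passed (changes 1.91 ± 1.06 and 1.32 ± 0.67, adjusted p = 0.187 and 0.156); fitted on the 6 arrays alone both did (adjusted p = 0.00506 and 0.00657). Under the slide block, which runs through low 2 and low 3, both turned negative without a call (log2 -2.32 and -1.77, adjusted p = 0.129 and 0.103).

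Junb, Cxcl2 and Myc behaved likewise: changes of 0.99, 2.88 and 0.49 did not pass (adjusted p = 0.0527, 0.0592 and 0.0943), passed on the 6 arrays alone (adjusted p = 0.00579, 0.0158 and 0.00391) and were -0.83, -0.72 and -0.55 with the block, not called. Cxcl2 was well above background on 1 control array. Egr2 was called (change 2.17 ± 0.72, adjusted p = 0.0392) and turned to -1.02 with the block (adjusted p = 0.545). Atf3, a stress-induced repressor, read 0.09, 0.50 and -0.28 in controls, -0.05, 1.54 and 1.70 at 150 mg/kg and 2.35, 1.99 and 2.33 at high dose (change 2.12 ± 0.39, adjusted p = 0.00255; 0.448 with the block). Fosl1 was the member of the list that rose in both fits, at least 4.99-fold (adjusted p = 0.000562; 0.0439 with the block). In all 8 of 32 immediate early and AP-1 genes rose and 3 fell, with a median of 0.38, or -0.52 with the block. The falls were Ccn2, a matrix protein induced by stretch (4.49, 4.64 and 4.29 in controls and 2.90, 3.72 and 3.64 at high dose, with high 1 the lowest; change -1.06 ± 0.28, adjusted p = 0.014), as well as the flow-sensitive Klf2 (change -0.63 ± 0.16, adjusted p = 0.012) and Jund (change -0.22 ± 0.07, adjusted p = 0.038), none called with the block. With the block 3 other members of the list were called lower, and 7 of the 32 were positive. The call of Egr2 did not hold without control 1, control 3, high 1, high 2 or high 3 (adjusted p up to 0.124), that of Ccn2 without high 1 (0.0507) and that of Jund without control 1, control 2, high 2 or high 3 (0.126).

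**Figure D5:**
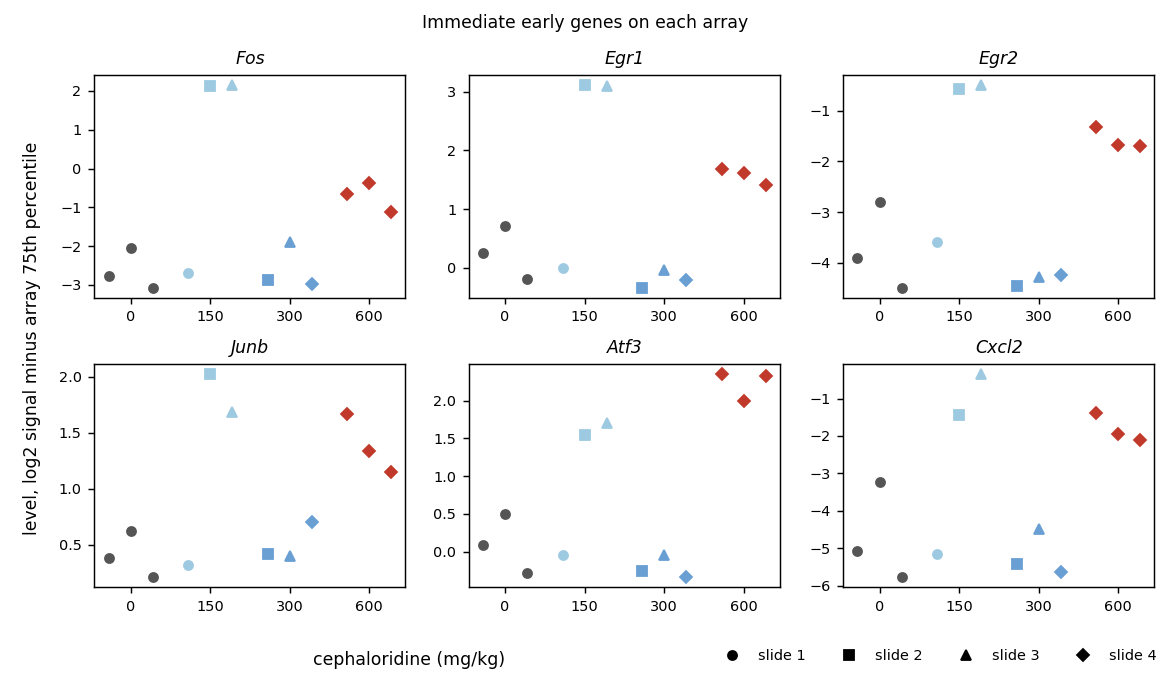
Level of 5 immediate early genes and the chemokine Cxcl2 (log2 signal minus the array's 75th percentile, vertical axes) on each array by dose in mg/kg (horizontal axes), with the marker shape giving the slide. At 150 mg/kg, low 2 and low 3 on slides 2 and 3 lie far above low 1, and the 3 high-dose arrays lie above the 3 controls in all 6 panels.

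Genes that mark injured tubules changed unevenly. Of 26 tested 13 rose and 3 fell, with a median of 0.30. Under the slide block the median was 0.09 with 14 of 26 positive, and 2 of the 13 stayed called. Havcr1, the kidney injury molecule KIM-1, read -4.26, -3.64 and -2.90 in controls and -0.28, -0.56 and -0.40 at high dose (change 3.19 ± 0.51, adjusted p = 0.00123); its controls spread over 1.36, its high-dose arrays over 0.28, and the block gave 2.16 (adjusted p = 0.278). Gpnmb, a glycoprotein of stressed lysosomes, read -1.46, -1.60 and -1.36 and 0.79, 0.62 and 0.76 (change 2.20 ± 0.11, adjusted p = 1.93e-06; 0.0152 with the block). The metalloproteinase inhibitor Timp1 read 0.79, 0.97 and 0.92 and 2.27, 2.05 and 2.18 (change 1.27 ± 0.08, adjusted p = 9.05e-06; 0.0372 with the block). Lcn2, an iron carrier released by injured tubules, was not well above background in controls and was at least 1.76-fold higher (adjusted p = 0.0159; 0.852 with the block). Spp1, a secreted phosphoprotein, and Clu, an extracellular chaperone, lay higher on all 3 high-dose arrays than on any control (5.56, 5.78 and 5.47 against 5.17, 5.26 and 5.03, and 2.54, 2.53 and 2.49 against 2.27, 2.21 and 2.41) and did not pass (adjusted p = 0.131 and 0.182; 0.0151 and 0.0279 on the 6 arrays alone). With the block Spp1 turned to -0.70 (adjusted p = 0.225). The intermediate filament Vim did not pass (change 0.04, adjusted p = 0.752), and the keratin Krt7 and the embryonic regulators Sox4 and Pax8 fell by 0.44 ± 0.07, 0.35 ± 0.12 and 0.19 ± 0.05 (adjusted p = 0.000839, 0.0373 and 0.0103), none called with the block. The call of Lcn2 did not hold without control 3 (adjusted p up to 0.0578), and that of Sox4 without control 1, control 2, high 2 or high 3 (0.135).

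Matrix-degrading enzymes gave the large changes among 31 matrix genes, of which 12 rose and 5 fell. Mmp3, the stromelysin that cuts many matrix proteins, was not well above background in controls (-7.26, -7.20 and -7.04) and read -2.18, -3.45 and -2.85 at high dose, at least 4.25-fold higher (adjusted p = 4.13e-06; 0.0301 with the block). The macrophage elastase Mmp12 rose by 1.79 ± 0.21 (adjusted p = 0.000237) and the aggrecanase Adamts4 at least 2.06-fold (adjusted p = 0.00975); the block gave 1.93 and -0.34 without a call (adjusted p = 0.112 and 0.842). Has1, a hyaluronan synthase outside the list, was at least 2.33-fold higher than controls not well above background (adjusted p = 0.00407; 0.164 with the block). The inhibitor Timp3 and the fibrillin Fbn1 fell by 0.63 ± 0.07 and 0.42 ± 0.06 (adjusted p = 0.00015 and 0.000921; the block gave 0.15 and 0.176), although a second Fbn1 probe gave -0.07. Among 18 collagens and glycoproteins 4 rose and 2 fell, against 18% and 16.8% over all genes. Of 28 growth factor ligands and receptors 5 rose and 7 fell, none of them called with the block. The share that rose was close to that over all genes. Gdf15, a stress cytokine (0.94 ± 0.27, adjusted p = 0.022), the insulin-like growth factor binding protein Igfbp1 (0.72 ± 0.19, adjusted p = 0.0161) and Tgfb1 (0.59 ± 0.05, adjusted p = 4.97e-05) rose. Bmp2, Igfbp3 and Fgf1 fell by 0.44 ± 0.11, 0.42 ± 0.06 and 0.36 ± 0.07 (adjusted p = 0.0135, 0.000921 and 0.00413). Gdf15 turned to -0.27 with the block (adjusted p = 0.548). The call of Gdf15 did not hold without control 1, control 3, high 1 or high 3 (adjusted p up to 0.072), and that of Bmp2 without control 2 or high 3 (0.0542).

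The transport programme of the proximal tubule was lower. Of the 20 markers of this segment 17 fell and none rose, with a median of -0.43, and their summed level went from 10.89 to 10.95 on control arrays to 10.55 to 10.63 on high-dose arrays. Under the slide block the median was -0.29 and 2 of the 17 falls stayed called. The endocytic receptors of filtered protein, megalin (Lrp2) and cubilin (Cubn), read 6.57, 6.56 and 6.64 and 5.17, 4.97 and 5.08 in controls and 6.10, 6.12 and 6.24 and 4.60, 4.69 and 4.69 at high dose (changes -0.44 ± 0.10 and -0.41 ± 0.07, adjusted p = 0.00592 and 0.00119). The block gave 0.04 and -0.19 without a call (adjusted p = 0.863 and 0.453). Slc34a1, the main phosphate carrier of the brush border, read 6.49, 6.40 and 6.48 and 5.84, 5.83 and 5.92 and stayed called (change -0.59 ± 0.05, adjusted p = 2.67e-05; log2 -0.58, adjusted p = 0.0455 with the block). Slc7a7, which exports basic amino acids to blood, fell by 0.85 ± 0.11 (adjusted p = 0.000416; 0.336 with the block) and the bicarbonate carrier Slc4a4 by 0.71 ± 0.12 (adjusted p = 0.00241; 0.86 with the block). The water channel Aqp1 read 6.80, 6.79 and 6.74 and 6.27, 6.30 and 6.16 and stayed called (change -0.53 ± 0.11, adjusted p = 0.00438; 0.0365 with the block).

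By function, 9 of 23 carriers of sugar, phosphate and bicarbonate fell and 2 rose. Slc34a3, a second phosphate carrier, fell by 0.73 ± 0.08 (adjusted p = 0.000143; 0.167 with the block), while the widely expressed phosphate carrier Slc20a1 rose by 0.55 ± 0.06 (adjusted p = 0.000103; 0.0914 with the block). Of 23 amino acid carriers 11 fell and 4 rose. The light chain Slc7a8 fell by 0.56 ± 0.08 and the taurine carrier Slc6a6 by 0.50 ± 0.11 (adjusted p = 0.000765 and 0.00661; 0.335 and 0.0929 with the block). The rises included carriers known from growing cells, Slc7a5 (0.89 ± 0.10, adjusted p = 0.000241) and the glutamine carrier Slc1a5 (1.55, 1.42 and 1.62 in controls and 2.38, 2.42 and 2.33 at high dose, change 0.85 ± 0.06, adjusted p = 1.68e-05). Slc7a10 also rose (0.93 ± 0.10, adjusted p = 0.000127) and was called with the block as well (adjusted p = 0.0386, against 0.136 for Slc7a5 and 0.0543 for Slc1a5). A second Slc7a10 probe gave 0.17 and was not called. Of 22 brush border peptidases and endocytosis genes 11 fell and 2 rose. Folh1, a folate hydrolase of the brush border, read 0.99, 0.95 and 1.13 in controls and -0.58, -0.31 and -0.22 at high dose (change -1.39 ± 0.15, adjusted p = 0.000145; 0.174 with the block). The carnosinase Cndp1 fell by 0.71 ± 0.11 (adjusted p = 0.00109; 0.0393 with the block), and the angiotensin-converting enzyme Ace rose by 0.36 ± 0.10 (adjusted p = 0.0151; 0.259 with the block). The call of Ace did not hold without control 3 or high 1 (adjusted p up to 0.0552).

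Among markers of later nephron segments, more were called higher than lower. In the thick ascending limb 3 of 10 rose and none fell, in the distal convoluted tubule 5 of 7 rose and 1 fell, in principal cells 3 of 10 rose and none fell, and in intercalated cells 6 of 11 rose and 1 fell. Over all genes 18% were called higher and 16.8% lower, and 3 of 10 lies above that share by few genes. The medians were 0.20, 0.25, 0.14 and 0.24, and under the slide block 0.18, 0.49, -0.10 and 0.49, so that of the principal cells turned. The growth factor Egf rose by 0.32 ± 0.08 (adjusted p = 0.0103; 0.169 with the block), while Umod, the bulk protein of the thick limb, did not pass (change 0.08, adjusted p = 0.265). The sodium chloride carrier Slc12a3 rose by 0.39 ± 0.09 (adjusted p = 0.00731; 0.214 with the block). The calcium-binding Calb1 rose by 0.69 ± 0.15 (adjusted p = 0.00535, and 0.0275 with the block), though 1 of its 4 probes gave -0.08. The calcium exchanger Slc8a1 fell by 0.83 ± 0.10 (adjusted p = 0.00029, and 0.236 with the block). Of its 3 probes only 1 was called lower, and the weakest gave -0.17. The 3 subunits of the epithelial sodium channel rose by similar small amounts, Scnn1a by 0.37 ± 0.06, Scnn1b by 0.30 ± 0.05 and Scnn1g by 0.28 ± 0.07 (adjusted p = 0.00128, 0.00144 and 0.0123; 0.409, 0.143 and 0.158 with the block). The ammonia channel Rhcg of intercalated cells read 2.29, 2.23 and 2.35 in controls and 2.84, 2.97 and 2.94 at high dose and stayed called (change 0.62 ± 0.06, adjusted p = 8.79e-05; 0.0359 with the block).

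Outside the tubule, 2 of 9 podocyte markers fell and none rose, 7 of 15 endothelial markers fell and none rose, and 3 of 11 fibroblast and mesangial markers rose and none fell. Over all genes 18% were called higher and 16.8% lower, so the podocyte falls and the fibroblast rises were near those shares. The slit diaphragm gene Nphs1 did not pass (change 0.02, adjusted p = 0.789), and the podocyte regulator Wt1 fell by 0.30 ± 0.08 (adjusted p = 0.0199; 0.195 with the block). The endothelial receptors Kdr and Tek fell by 0.35 ± 0.04 and 0.35 ± 0.10 and the clotting carrier Vwf by 0.40 ± 0.14 (adjusted p = 0.000239, 0.0172 and 0.0472; 0.111, 0.197 and 0.158 with the block). The summed endothelial level went from 6.24 to 6.31 on control arrays to 5.99 to 6.07 on high-dose arrays, in the same tissue in which Sele rose. The receptor Pdgfra of interstitial fibroblasts rose by 0.31 ± 0.05 (adjusted p = 0.000858; 0.32 with the block). The call of Wt1 did not hold without control 2 or high 3 (adjusted p up to 0.0762), that of Tek without control 1 or high 1 (0.0685) and that of Vwf without control 1, control 2, control 3, high 2 or high 3 (0.148).

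Genes of several metabolic pathways fell. Of 15 genes of gluconeogenesis, which lets the cortex release glucose, 11 fell and 1 rose, with a median of -0.39 (-0.25 under the slide block). G6pc1, which frees glucose from its phosphate, read 6.74, 6.84 and 6.93 in controls and 5.78, 6.02 and 5.95 at high dose (change -0.92 ± 0.09, adjusted p = 8.07e-05; log2 -0.95, adjusted p = 0.0586 with the block). The carboxykinase Pck1 fell by 0.67 ± 0.12 and the carboxylase Pc by 0.57 ± 0.07 (adjusted p = 0.00186 and 0.000242; 0.524 and 0.0705 with the block). Of 23 genes of glycolysis and hypoxia response 11 rose and 2 fell. The hexokinase Hk2, not well above background in controls, was at least 1.62-fold higher and the pyruvate kinase Pkm rose by 0.41 ± 0.06 (adjusted p = 0.000731 and 0.000632; 0.246 and 0.412 with the block). Of 35 genes of amino acid breakdown and one-carbon metabolism 20 fell and 2 rose, led by Aass of lysine breakdown (change -0.82 ± 0.11, adjusted p = 0.000472), Prodh2 of hydroxyproline breakdown (change -0.70 ± 0.08, adjusted p = 0.000162) and the inositol oxygenase Miox (change -0.69 ± 0.07, adjusted p = 7.69e-05), none called with the block.

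Of 37 genes of fatty acid oxidation and PPARA control 13 fell and 4 rose. The oxidation enzymes Ehhadh and Hadh fell by 0.57 ± 0.07 and 0.47 ± 0.07 (adjusted p = 0.000228 and 0.000949), neither called with the block. The 2 large rises in this list were secreted lipid proteins. Angptl4, a lipase inhibitor, read -2.56, -2.66 and -2.71 in controls and -0.23, -0.49 and -0.07 at high dose (change 2.38 ± 0.17, adjusted p = 1.52e-05; 0.0194 with the block). The apolipoprotein Apoa4 read -2.23, -2.30 and -2.13 in controls and 0.21, 0.04 and 0.20 at high dose (change 2.37 ± 0.10, adjusted p = 7.03e-07; 0.00366 with the block). Angptl4 had a mean of -2.42 at 300 mg/kg, close to the control mean of -2.64, whereas Apoa4 had -0.71, well above its control mean of -2.22. Of 25 genes of cholesterol synthesis 15 rose and none fell, with a median of 0.28, or 0.14 with the block and no call kept there, among them Dhcr7 (0.67 ± 0.09, adjusted p = 0.000443; 0.211 with the block) and Cyp51 (0.44 ± 0.08, adjusted p = 0.00308; 0.299 with the block). Of 51 subunits of the respiratory chain and ATP synthase 5 were called lower and 1 higher, smaller shares than over all genes. On high-dose arrays 22 of the 51 lay wholly below the controls and 2 wholly above, against 27.6% and 28.5% of all genes. Their median change was small, at -0.05 (0.0 with the block). Of 18 citrate cycle genes 8 fell and 2 rose, with Idh2 lower by 0.33 ± 0.07 and the synthase Cs higher by 0.32 ± 0.04 (adjusted p = 0.00362 and 0.000544; 0.0836 and 0.163 with the block). The antiageing hormone gene Kl, klotho, read 2.13, 1.89 and 2.04 in controls and 1.41, 1.49 and 1.47 at high dose (change -0.56 ± 0.11, adjusted p = 0.00384; 0.317 with the block). Rgn, a calcium-binding lactonase, fell by 0.70 ± 0.12 and stayed called (adjusted p = 0.00184, and 0.0097 with the block). Its blocked change of -1.43 runs through middle 3, where it read 5.3, against 4.81 and 4.9 on the other middle-dose arrays.

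Many genes of the machinery of protein synthesis rose by small amounts. Of 73 ribosomal protein genes 55 rose and none fell, with a median of 0.26 and a range from -0.62 to 0.50, and their summed level went from 12.31 to 12.38 on control arrays to 12.56 to 12.62 on high-dose arrays. Rps19 read 5.11, 5.13 and 5.19 in controls and 5.70, 5.60 and 5.65 at high dose (change 0.50 ± 0.06, adjusted p = 0.00029; 0.0656 with the block). Of 31 ribosome biogenesis genes 16 rose and none fell; the nucleolar Nop56 rose by 0.67 ± 0.05 and Nhp2 by 0.66 ± 0.05 (adjusted p = 2.81e-05 and 1.23e-05; 0.0795 and 0.0478 with the block). Of 34 translation initiation factors 18 rose and 1 fell, of 18 aminoacyl-tRNA synthetases 11 rose and none fell, and of 39 proteasome genes 20 rose and none fell. With the block 1 of the 55 ribosomal proteins, 1 of the 16 biogenesis genes, 1 of the 11 synthetases and none of the proteasome genes or initiation factors stayed called. The medians of these lists kept their sign there, at 0.30 for ribosomal proteins and 0.17 for the proteasome.

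Of 20 chaperones and folding genes of the endoplasmic reticulum 10 fell and 1 rose, with a median of -0.22 (-0.33 under the slide block, with no fall kept). Hspa5, the main HSP70 of this compartment, read 6.27, 6.23 and 6.28 in controls and 5.73, 5.74 and 5.90 at high dose (change -0.47 ± 0.07, adjusted p = 0.000898; 0.0733 with the block). The calcium-binding chaperone Calr fell by 0.49 ± 0.08 and the stress sensor Atf6 by 0.61 ± 0.11 (adjusted p = 0.00126 and 0.00243; 0.0563 and 0.0914 with the block). The list of ATF4 targets split, with 9 of 22 higher and 7 lower. The pseudokinase Trib3 read -2.06, -1.97 and -2.08 in controls and -0.67, -0.53 and -0.43 at high dose (change 1.49 ± 0.08, adjusted p = 2.82e-06; 0.0153 with the block). Chac1, which degrades glutathione, was well above background on 1 control array, so its change of 1.99 ± 0.19 has no exact size (adjusted p = 7.14e-05; 0.07 with the block). Ddit4, an inhibitor of mTOR signalling, read 1.50, 1.48 and 1.54 in controls and -0.07, 0.65 and 0.66 at high dose, with high 1 the lowest of all 6 arrays (change -1.10 ± 0.23, adjusted p = 0.00534; 0.0797 with the block). The serine synthesis enzyme Phgdh fell by 0.45 ± 0.07 (adjusted p = 0.000724; 0.139 with the block). The reference genes Gapdh and Actb read changes of 0.16 ± 0.05 and 0.13 ± 0.06 (adjusted p = 0.0233 and 0.123), so Gapdh was called higher by about as much as the median ribosome biogenesis gene (0.16). The call of Gapdh did not hold without control 1, control 2, high 2 or high 3 (adjusted p up to 0.0864).

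Among the other large falls, the forkhead factor Foxe1 read -0.50, -0.98 and -1.17 in controls and -3.17, -2.33 and -3.41 at high dose (change -2.09 ± 0.48, adjusted p = 0.00779; log2 -0.30, adjusted p = 0.894 with the block), and its mean at 300 mg/kg was -3.0. The axonemal dynein Dnah9 fell by 1.77 ± 0.21, the mesoderm factor Mesp1 by 1.41 ± 0.15 and the annexin Anxa13 by 1.39 ± 0.21 (adjusted p = 0.00029, 0.000116 and 0.000844; 0.0798, 0.1 and 0.15 with the block). The trypsin inhibitor Spink1 read 3.98, 3.85 and 3.89 and 2.58, 2.65 and 2.76 (change -1.25 ± 0.22, adjusted p = 0.00204; 0.112 with the block). The cannabinoid receptor Cnr1 and the prolactin relative Prl6a1 were not well above background at high dose and were at least 2.98-fold and 1.99-fold lower (adjusted p = 0.0022 and 0.0252). With the block Prl6a1 turned to 1.38 (adjusted p = 0.34) and Cnr1 was not called (adjusted p = 0.121). The receptor Glp1r, well above background on 2 control arrays and on none at high dose, was at least 1.54-fold lower and stayed called (adjusted p = 0.0229, and 0.0208 with the block). The blocked change of -3.45 runs through middle 3, where Glp1r read -3.04, against -4.26 and -4.57 on the other middle-dose arrays. The endothelin Edn3 fell by 1.19 ± 0.28 and the T cell receptor Ctla4 by 1.19 ± 0.41 (adjusted p = 0.00857 and 0.0445; 0.182 and 0.272 with the block), Ctla4 being well above background on 2 high-dose arrays. Among the large rises of genes in no list, the secreted Sbsn was not well above background in controls and was at least 1.96-fold higher (adjusted p = 7.03e-07; 0.0152 with the block). Probes of 3 olfactory receptor genes also met the rule for large changes: Or5w12 was at least 2.69-fold higher, and Or13l2 and Or52z12 fell by 1.39 ± 0.15 and 1.23 ± 0.11 (adjusted p = 0.000107, 0.000165 and 5.11e-05; the block gave 0.102, 0.116 and 0.119). The call of Prl6a1 did not hold without control 1, control 2, high 2 or high 3 (adjusted p up to 0.0872), that of Glp1r without control 1, control 2, high 2 or high 3 (0.0769) and that of Ctla4 without control 1, control 2, high 1, high 2 or high 3 (0.155).

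Arrays of the same group were close for most genes. The median standard deviation over the 3 arrays was 0.066 in controls, 0.073 at 150 mg/kg, 0.11 at 300 mg/kg and 0.07 at high dose. The controls shared slide 1 and the high-dose arrays slide 4, so their spread holds no difference between slides. The low and middle arrays were spread over several slides. From the lowest to the highest quartile of genes by level, the median standard deviation fell from 0.14 to 0.04 in controls and from 0.15 to 0.05 at high dose. Among called genes past 2-fold, the 6 genes with the widest spread at high dose included Dll3, Zbtb16 and Dtx3l, all of them dim. Dll3, a Notch ligand, read -2.47, -4.52 and -4.05 at high dose and -5.20, -5.66 and -4.36 in controls (adjusted p = 0.0445; 0.488 with the block), with high 1 far above the others. The glucocorticoid-induced factor Zbtb16 read -4.82, -3.43 and -3.72 at high dose, with high 1 the lowest, and was at least 1.9-fold higher than controls that were not well above background (adjusted p = 0.00182; 0.606 with the block). Dtx3l, a ubiquitin ligase, read -5.20, -3.90 and -4.81, with high 2 the highest (at least 1.21-fold, adjusted p = 0.0257; 0.995 with the block). Ccl12, Cxcl1 and Mmp3, given above, were the other members, each with high 1 the highest. The call of Dll3 did not hold without control 1, control 2, high 1 or high 3 (adjusted p up to 0.149), and that of Dtx3l without control 2 or high 2 (0.0961).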

How the data were processed

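Total RNA was labelled with Cy3 and read on 12 one-colour Agilent arrays, 1 animal each. Per the file headers, the authors made the spot intensity values with Agilent Feature Extraction 9.1.3.1, with background subtracted within each array and nothing scaled between arrays. The deposited value table of the series holds a ratio: each processed signal divided by 1 constant per array, as found by setting it against the same arrays, and it served as an alternative. Deposited spot flags marked outliers, saturation and signal well above background.

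From these, control spots and outlier spots were left out, spots of a probe averaged and log2 signals taken minus each array's 75th percentile. Of 41012 probes, 10735 were named by accession, 5571 by symbol and 3729 by an older symbol through the RefSeq table, and 20977 were not matched. The brightest probe stood for a gene. A gene was tested where some group had all 3 arrays well above background, and 19 tested genes had fewer than 3 arrays in a group compared. limma 3.58.1 in R 4.3.3 fitted 1 mean per group over the 12 arrays, two-sided, with Benjamini-Hochberg adjustment over 20760 genes and a threshold of 0.05. A change of "at least N-fold" sets the bright group's mean against, per array, the higher of the lowest signal well above background and the dim probe's own. The fit was tested on simulated data. The number of arrays limits the precision, and no depth applies.

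The gene lists and tests were chosen with earlier results of these data known. Named genes are the 15 largest called changes in each direction without overlap of the groups, up to 3 in each direction per list, 6 with the widest spread at high dose and a set of injury, transport and control genes. Another 36 were chosen after their values were seen, and a few genes are not reported here. Alternatives changed the scaling, the background correction, the filter, the probe rule, the arrays fitted, the moderation and the block (slide, scan day or replicate number).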

Additional observations from a re-analysis of the deposited data

How the results depend on the processing

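Slide was the setting that changed most. It left 380 higher and 204 lower calls when blocked, and 420 and 204 when quantile scaling was added, a combination chosen after the data were seen. Of the 202 genes named as called, 51 stayed called with the block and 195 kept their sign. With the block the change turned sign for Adamts4 (-0.34, and -0.22 with quantile scaling), Cdkn1a (-0.05, and -0.04 with quantile scaling), Cxcl2 (-0.72, and -0.63 with quantile scaling), Egr1 (-1.77, and -1.79 with quantile scaling), Egr2 (-1.02, and -1.01 with quantile scaling), Fos (-2.32, and -2.34 with quantile scaling), Gclc (-0.43, and -0.48 with quantile scaling), Gdf15 (-0.27, and -0.29 with quantile scaling), Junb (-0.83, and -0.84 with quantile scaling), Lrp2 (0.04), Myc (-0.55, and -0.56 with quantile scaling), Prl6a1 (1.38, and 1.53 with quantile scaling), S100a9 (-0.72, and -0.60 with quantile scaling), Socs3 (-0.03), Spp1 (-0.70, and -0.69 with quantile scaling) and Vim (-0.39, and -0.43 with quantile scaling). With the block and quantile scaling together it also turned for Clu (-0.02). The uncalled change of Ccnd1 (-0.02) became 0.01 with median scaling, 0.01 with the series value table and 0.02 with the mean of probes and ran from -0.10 to 0.05 on leaving out 1 array. The uncalled change of Nphs1 (0.02) ran from -0.01 to 0.05 on leaving out 1 array. The cause of these turns was not tested. Apart from slide, the count called higher ran from 2812 to 4260 and the count called lower from 2533 to 4088. Of at least 2-fold, normexp background correction left 94 rises and 15 falls, requiring every array well above background left 164 and 52, and no filter on dim probes gave 149 falls. Leaving out each array in turn gave 2812 to 3289 genes higher, 2533 to 2880 lower, 243 to 271 at least 2-fold higher and 79 to 90 at least 2-fold lower, and 172 of the 202 named calls held without any single array. The labels number the animals 1 to 3 in each group. With the replicate number as a block the calls were 3448 higher and 3260 lower. The numbers did not pair the arrays: deviations of same-numbered control and high arrays correlated at 0, 0.01 and 0.12, and controls 1 and 2 correlated best with another number. Median scaling and the series value table raised the share of higher calls from 51.7% to 58.8% and 58.9%. Precision was limited by 3 animals a group and by signal: dim genes varied more, and a gene not well above background in a group has only a bound there.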

Other observations

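Of 17 genes of the circadian clock, which sets daily rhythms in the tubule, 4 rose and 3 fell, shares close to those over all genes, and none was called under the slide block. The repressor Bhlhe41 read 2.0, 1.92 and 2.08 in controls and 3.14, 2.84 and 3.12 at 600 mg/kg (change 1.03 ± 0.10, limma adjusted p = 9.65e-05), and Nfil3 and Nr1d1 rose by 0.97 ± 0.21 and 0.83 ± 0.13 (adjusted p = 0.00538 and 0.00101). The activators Rora, Hlf and Tef fell by 0.35 ± 0.08, 0.35 ± 0.11 and 0.33 ± 0.09 (adjusted p = 0.00563, 0.0326 and 0.0153). The call of Hlf did not hold without control 1, control 2, control 3, high 1, high 2 or high 3 (adjusted p up to 0.107), and that of Tef without control 1 or high 2 (0.0605). The time of day of sampling is not given in the sources used here.

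Osmolyte and junction genes gave single large members. The inositol carrier Slc5a3, which tubule cells raise in salty surroundings, read 2.02, 1.50 and 1.70 in controls and 2.74, 3.11 and 2.81 at high dose (change 1.15 ± 0.15, adjusted p = 0.000413; 0.24 with the block), while 4 of 17 osmolyte genes rose in all. Cldn14, a claudin of the thick ascending limb that limits calcium uptake, rose by 1.11 ± 0.10 (adjusted p = 4.41e-05; 0.0509 with the block), and 4 of 18 claudin and junction genes rose. Both shares are near that over all genes. Of 30 splicing genes 13 rose and none fell; Hnrnpa1 rose by 0.73 ± 0.05 (adjusted p = 1.71e-05; 0.0554 with the block), though its 4 probes ran from 0.24. Of 21 genes of steroid and thyroid hormone handling 8 fell and 2 rose, among them Hsd17b2, which inactivates sex steroids (change -0.90 ± 0.16, adjusted p = 0.0019; 0.782 with the block), and the deiodinase Dio1, which fell by 0.48 ± 0.06 and stayed called (adjusted p = 0.000486; 0.0364 with the block).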
